A study of Mus musculus with 4 samples.

Results

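Noncoding transcripts that lie close to a gene without overlapping it were examined in macrophage cultures of GM1082 KO and wild type mice. Bone marrow cells of both genotypes had been kept in M-CSF, the cytokine that drives marrow progenitors towards macrophages, for 5 days, and total RNA was sequenced from 2 libraries of each genotype. GM1082 KO cells are labelled as lacking both copies of GM1082, a noncoding gene, and wild type cells, given the same M-CSF, carry it. The labels give no strain, sex, age or batch, and do not say how the allele was made. They do not say either if a genotype's libraries are from different animals, so p-values reflect the spread among these 4 samples alone, possibly a technical one. Of the 62046 rows in the table, 40546 are noncoding rows with NONCODE identifiers, and 1219 of these are described here. They were chosen by position and level: on chromosomes 1 to 19, with a mean of at least 1 FPKM (fragments scaled to the row's length and the library's mapped fragments) over the 4 libraries, with a span that overlaps no Ensembl gene row on either strand but lies 5 kb or less from one. Among them, 272 (22.3%) began upstream of the nearest gene on the opposite strand and are called upstream divergent. A further 540 (44.3%) lay downstream of the gene on its own strand, and the other 407 (33.4%) comprised 294 downstream on the opposite strand and 113 upstream on the same strand.

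Noncoding RNA beside genes has several known sources in mammalian cells. Many promoters fire in both directions, and the RNA that leaves upstream is usually short and quickly degraded by the nuclear exosome, although some promoters give rise to stable long noncoding RNAs. RNA found downstream on the gene's strand may be an independent transcript, an unannotated extension of the gene's last exon, or transcription that runs on past the polyadenylation site. Some noncoding genes near others are primary transcripts of microRNAs (miRNAs) or hosts of small nuclear and nucleolar guide RNAs.

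The promoters of genes with divergent rows show the layout most directly. RefSeq promoters were matched to the neighbours of 199 of the 272 divergent rows, and in 76 of these (38.2%) the noncoding row began within the 250 bases before the gene's start. The 6 sequences below are those 250 bases, read 5′ to 3′ on the gene's strand from RefSeq (GRCm38.p6), for divergent rows of this kind. Capitals mark matches, on either strand, to 5 motifs. These are TATAAA, known as the core of a promoter's classical start element, then CCAAT, bound by the factor NF-Y, then GGGCGG, known as the Sp1 or GC box, then GAGGAA, resembling the core read by the myeloid factor PU.1, and then GGAAGT, resembling the core read by other ETS factors, where the last 2 can overlap. A match is a description of the letters and not a bound site.
Fth1: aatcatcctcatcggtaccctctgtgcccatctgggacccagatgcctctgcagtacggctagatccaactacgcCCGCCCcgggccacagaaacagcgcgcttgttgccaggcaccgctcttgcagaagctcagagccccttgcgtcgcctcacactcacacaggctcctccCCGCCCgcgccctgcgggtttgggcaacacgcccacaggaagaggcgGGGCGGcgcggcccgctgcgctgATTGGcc
Bcl6: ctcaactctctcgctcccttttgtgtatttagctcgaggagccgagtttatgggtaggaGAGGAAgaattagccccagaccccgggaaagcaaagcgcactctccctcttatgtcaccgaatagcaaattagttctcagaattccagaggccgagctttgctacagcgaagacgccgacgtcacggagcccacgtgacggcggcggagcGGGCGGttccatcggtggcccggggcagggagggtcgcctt
Tbc1d22a: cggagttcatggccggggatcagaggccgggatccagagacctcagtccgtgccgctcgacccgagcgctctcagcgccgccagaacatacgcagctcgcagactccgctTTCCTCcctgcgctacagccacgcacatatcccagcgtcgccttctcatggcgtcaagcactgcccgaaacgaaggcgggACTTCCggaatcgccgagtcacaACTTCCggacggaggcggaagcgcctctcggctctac
Mvd: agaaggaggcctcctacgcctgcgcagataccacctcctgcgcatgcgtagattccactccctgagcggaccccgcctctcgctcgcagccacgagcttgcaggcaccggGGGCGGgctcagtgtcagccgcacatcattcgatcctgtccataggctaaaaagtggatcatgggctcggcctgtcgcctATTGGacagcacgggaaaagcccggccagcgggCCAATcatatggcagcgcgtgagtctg
Actg1: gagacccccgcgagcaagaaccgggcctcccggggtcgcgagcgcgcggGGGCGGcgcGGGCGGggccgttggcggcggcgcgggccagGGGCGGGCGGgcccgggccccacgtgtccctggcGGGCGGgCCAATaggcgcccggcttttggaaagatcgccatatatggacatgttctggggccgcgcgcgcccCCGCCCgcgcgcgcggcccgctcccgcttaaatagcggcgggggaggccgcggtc
Ankrd42: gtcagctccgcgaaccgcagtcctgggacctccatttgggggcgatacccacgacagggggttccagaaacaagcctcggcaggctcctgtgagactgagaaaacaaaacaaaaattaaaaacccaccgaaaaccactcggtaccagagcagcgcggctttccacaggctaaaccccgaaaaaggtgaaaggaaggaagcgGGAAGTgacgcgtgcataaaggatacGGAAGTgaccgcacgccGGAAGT

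The Fth1 window, chr19:9982396-9982645 on the plus strand, precedes the ferritin heavy chain gene. NONMMUG020796.2 began 156 bases before the Fth1 start on the opposite strand and had 20.7 and 21.9 FPKM in GM1082 KO libraries, against 26.2 and 16.6 FPKM in wild type libraries. The genotypes overlapped, and Fth1 itself stood at 4675 and 4048 FPKM in GM1082 KO and 4529 and 3709 FPKM in wild type. The whole RefSeq span of Fth1 reaches into this row. Since the handling of strand is not given, reads of Fth1 cannot be told apart from the row's own. The Actg1 window, chr11:120348496-120348745 on the minus strand, was the richest of the 6 in G and C (79.2%) and held 6 GC boxes. NONMMUG088798.1, which RefSeq lists as the long noncoding RNA 0610009L18Rik, left this window at 5.10 and 5.61 FPKM in GM1082 KO libraries and 5.17 and 5.93 FPKM in wild type libraries. On the opposite strand NONMMUG089081.1, at 3.27 to 5.92 FPKM, overlaps it. Actg1, which encodes a cytoplasmic actin, had 742 and 778 FPKM in GM1082 KO and 854 and 834 FPKM in wild type. The divergent partner of Actg1 was thus far below the gene, and its levels overlapped between genotypes.

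In the windows of Bcl6 (chr16:23988853-23989102, minus strand) and Tbc1d22a (chr15:86214209-86214458, plus strand) the levels on the 2 sides were closer. NONMMUG016094.2, divergent from Bcl6, had 11.0 and 12.4 FPKM in GM1082 KO, against 14.8 and 12.7 FPKM in wild type. Bcl6, which encodes a transcriptional repressor that restrains inflammatory genes in macrophages, had 9.36 and 9.01 FPKM in GM1082 KO and 9.25 and 9.99 FPKM in wild type, below the noncoding row in each library. NONMMUG015170.2, divergent from the Rab GTPase-activating protein gene Tbc1d22a, had 6.41 and 5.32 FPKM in GM1082 KO and 6.40 and 5.24 FPKM in wild type, against gene levels of 15.5 to 17.4 FPKM. The Mvd window (chr8:122443423-122443672, minus strand) holds CCAAT 2 times and precedes a gene of cholesterol synthesis. NONMMUG041832.2, the RefSeq long noncoding RNA 9330133O14Rik, left it at 5.56 and 5.29 FPKM in GM1082 KO and 5.78 and 5.85 FPKM in wild type, while Mvd had 58.6 and 45.1 FPKM in GM1082 KO and 44.7 and 50.8 FPKM in wild type. At Ankrd42 (chr7:92637143-92637392, minus strand) the order was turned round. NONMMUG038708.2 had 4.42 and 5.35 FPKM in GM1082 KO and 5.75 and 5.58 FPKM in wild type, whereas the gene was at 0.0664 and 0.0648 FPKM in GM1082 KO and 0.0411 and 0.0617 FPKM in wild type.

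Over all divergent rows whose neighbour had a RefSeq promoter (189 promoters, each counted once), the median G and C content was 62.8% and the median number of CpG pairs 19. Across the 8620 promoters of Ensembl rows at 1 FPKM or more these were 59.6% and 16, and across all 32851 RefSeq promoters listed 52.4% and 6. A GC box was present in 65.1% of these promoters of genes with a divergent row, against 59.7% of promoters of expressed rows and 32.7% of all promoters. CCAAT was present in 23.3% of them, against 37.0% and 33.8%, and TATAAA in 6.35%, against 6.52% and 12.4%. GAGGAA was present in 23.3% of them, against 22.8% and 23.3%, and GGAAGT in 28.0%, against 25.3% and 19.7%. The promoters of genes with a noncoding row downstream on the same strand resembled those of genes with a divergent row in G and C content (62.4%, 365 promoters), but 38.1% held CCAAT. These shares describe promoters of genes that were mostly expressed, and no test was made.

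Of the 1219 rows, 19 contained a whole small RNA gene of RefSeq, and 7 of these contained miRNA genes. The mature sequences are given because the rows are longer RNAs that enclose them, with the seed (bases 2 to 8) in capitals.
mmu-miR-142a-5p: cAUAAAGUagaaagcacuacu
mmu-miR-142a-3p: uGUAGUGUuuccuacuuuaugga
mmu-miR-155-5p: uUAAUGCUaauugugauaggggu
mmu-miR-155-3p: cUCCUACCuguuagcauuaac
mmu-miR-23a-3p: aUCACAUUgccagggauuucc
mmu-miR-27a-3p: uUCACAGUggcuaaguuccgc
mmu-miR-24-3p: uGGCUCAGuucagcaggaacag
mmu-miR-674-5p: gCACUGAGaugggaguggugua
mmu-miR-1839-5p: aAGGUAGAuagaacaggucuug
mmu-miR-3069-3p: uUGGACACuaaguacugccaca
mmu-miR-8091: aGGAGUGAgugguaagcuggug

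No 2 of these miRNAs share a seed, and the FPKM values below are of the enclosing rows and not of the mature miRNAs. NONMMUG007185.3, on chromosome 11 from 87755563 to 87757709 (GRCm38, plus strand), encloses Mir142, which encodes a miRNA typical of blood cells. It lay 2832 bases upstream of Tspoap1 on the same strand and had 137 and 122 FPKM in GM1082 KO libraries, against 124 and 117 FPKM in wild type libraries. This was the fourth highest level among all 1219 rows, and the genotypes overlapped. NONMMUG017032.2, on chromosome 16 from 84703167 to 84715245 (plus strand), encloses Mir155, a miRNA that macrophages make on inflammatory stimulation. It had 4.29 and 8.30 FPKM in GM1082 KO and 5.19 and 5.04 FPKM in wild type, with GM1082 KO replicate 2 the highest library and replicate 1 the lowest. NONMMUG095569.1 encloses the Mir23a, Mir27a and Mir24-2 cluster, which is made as 1 primary transcript, and had 1.40 and 1.37 FPKM in GM1082 KO and 2.05 and 1.34 FPKM in wild type. Its genotypes overlapped as well. NONMMUG065979.1 (Mir8091) stood at 11.1 and 9.57 FPKM in GM1082 KO and 11.4 and 11.1 FPKM in wild type. NONMMUG024249.3 (Mir674) had 2.80 and 3.997 FPKM in GM1082 KO and 3.76 and 3.69 FPKM in wild type, and NONMMUG038526.3 (Mir1839) had 0.930 and 1.18 FPKM in GM1082 KO and 1.10 and 1.20 FPKM in wild type. NONMMUG009847.2 (Mir3069), the only one of the 7 whose genotypes did not overlap with the GM1082 KO libraries above, is described with the comparison of genotypes.

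The series as a whole set these limits. The depth recovered from low values was 17.7 and 18.1 fragments in GM1082 KO replicates 1 and 2, and 19.1 in both wild type libraries, for a row of 1 kb at 1 FPKM. The row that RefSeq lists as Arhgap33os, with Gm1082 as a synonym, was at 0.0639 and 0.0624 FPKM in GM1082 KO and 0.0792 and 0.0198 FPKM in wild type, so at this depth a loss of the targeted RNA was not detectable and the values check no label. Against the label of macrophages, 8 of 9 macrophage markers reached 1 FPKM and summed to 1874 and 2099.9 FPKM in GM1082 KO and 2442 and 2428 FPKM in wild type. All 10 neutrophil markers reached 1 FPKM. They summed to 21378 and 18327 FPKM in GM1082 KO and 17222 and 16191 FPKM in wild type. This sum was above the macrophage sum in every library and higher in GM1082 KO, but most of it came from S100a8 and S100a9. S100a8 had 8738 and 8480 FPKM in GM1082 KO and 7842 and 7586 FPKM in wild type, and S100a9 is given below. Without these 2 genes the sum was no longer above the macrophage sum in every library, nor higher in both GM1082 KO libraries, and GM1082 KO replicate 1 was highest. Markers of mast cells, basophils and eosinophils summed to 247 and 131 FPKM in GM1082 KO and 104 and 120 FPKM in wild type, so that library again stood apart. B cell markers summed to 120.2 to 179 FPKM and erythroid markers to 14.3 to 18.01 FPKM. T and NK cell markers summed to 2.63 to 4.17 FPKM and stromal markers to 0.316 to 0.643 FPKM. What part these cells have in any result below was not tested, and in bulk RNA fewer cells of a type and less RNA per cell cannot be told apart.

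Divergent rows lay close to the gene. Their median gap to the gene was 314 bases, with 131 of 272 (48.2%) within 300 bases and 187 (68.8%) within 1000 bases. Rows downstream on the same strand were farther away, with a median gap of 2100.5 bases, 63 of 540 (11.7%) within 300 bases and 168 (31.1%) within 1000 bases. The other rows were between these, with a median of 1241 bases. The rows had a median span of 1305 bases (201 to 197158), and 160 were shorter than 500 bases. Just inside the limits of the choice were NONMMUG095732.1, near Kat6a, with a mean of 1.00 FPKM, and NONMMUG021026.2, near Gm9938, with a gap of 4999 bases. Just outside were NONMMUG092253.1, near B4galt5, with a mean of 0.999 FPKM, and NONMMUG080720.1, near Irf2, with a gap of 5001 bases.

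The level that admitted a row went with its position. Of the rows described here 22.3% were upstream divergent and 44.3% downstream on the same strand, whereas among 4669 noncoding rows placed by the same rule but with a mean under 1 FPKM these shares were 43.2% and 25.5%. The nearest gene was itself at 1 FPKM or more for 1113 rows (91.3%), for 67.3% of the rows under 1 FPKM, and for 58.8% of all 20699 Ensembl rows on these chromosomes. By subgroup these shares were 93.4% for divergent rows, 95.2% for rows downstream on the same strand and 84.8% for the others. Level was used in the choice, so these shares are a description. The 1219 rows had 1057 neighbours, of which 920 had 1 row, 114 had 2, and 23 had 3 or more.

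**Figure D1:**
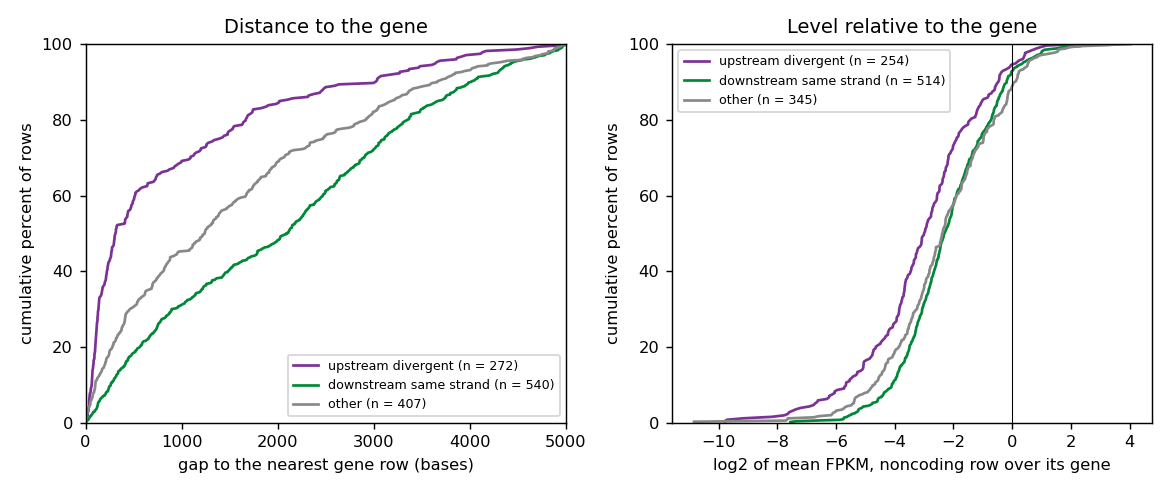
Cumulative percent of rows by the gap to the nearest gene row in bases (left, linear axis) and by the log2 ratio of the mean FPKM of the noncoding row to that of its gene (right, rows whose gene had at least 1 FPKM), with 1 line per subgroup. The divergent line rises first in both panels, with a median gap of 314 bases and a median ratio of 0.126, and few rows lie right of the vertical line at equal levels.

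Most rows were well below their neighbour. Across the 1113 rows whose gene had at least 1 FPKM, the median ratio of the row's mean FPKM to the gene's was 0.183, and 90 rows (8.09%) exceeded the gene. The ratio was lowest for divergent rows, with a median of 0.126 and 14 of 254 rows above the gene. Rows downstream on the same strand had a median ratio of 0.203, and the others 0.194. FPKM scales by length, so these are levels per length, although the exon lengths behind them are not given. The log2 levels of row and gene were weakly related across rows, with a Pearson r of 0.206 over 1113 pairs that come from the same 4 libraries (0.191 in divergent rows, 0.201 downstream on the same strand, and 0.291 in the others).

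RefSeq annotation reached into some rows of each subgroup. Of the 1219 rows, 476 (39.0%) overlapped a RefSeq gene of any kind, 33 coincided with one (reciprocal overlap of 0.9 or more), and 29 of those 33 are listed as long noncoding RNA. In 207 rows (17.0%) the RefSeq span of the neighbour itself reached into the noncoding row, although the table's own span of that gene did not. This was the case for 113 of the 540 rows downstream on the same strand (20.9%). It was also the case for 53 of the 272 divergent rows (19.5%) and 41 of the 407 others (10.1%). The 113 downstream rows had a median ratio to the gene of 0.517 and a median level of 3.11 FPKM. For the other 427 downstream rows these were 0.176 and 2.20 FPKM. The gaps of the 113 rows were also compared. They were shorter than those of the 427, with medians of 1057 and 2277 bases. Whether such rows are exons of the neighbouring gene was not tested. Another noncoding row overlapped 246 of the 1219 rows (20.2%), on the opposite strand for 167 of them. Since the handling of strand is not given, their values cannot be told apart from those of the overlapping row. The 246 include the divergent rows of Actg1, Bcl6, Glrx5 and Igf2r and rows named near Frmd8, Lnpep, Cebpb, Cdkn1b and Srsf1.

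Levels were low and alike across libraries. The median level over the 1219 rows was 2.04 and 2.08 FPKM in GM1082 KO libraries and 2.06 and 2.07 FPKM in wild type libraries. By subgroup the median of the 4-library means was 1.67 FPKM for divergent rows, 2.34 FPKM for rows downstream on the same strand and 1.98 FPKM for the others. It was 1.82 FPKM for the 1076 noncoding rows more than 5 kb from any gene, and 13.1 FPKM for the 962 neighbour genes tested. A mean of 5 FPKM was reached by 200 rows and 10 FPKM by 62. Whole fragments could be recovered, within 0.1 of a whole number in all 4 libraries, for 813 rows (66.7%), and these rested on a median of 170 fragments over the 4 libraries.

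**Figure D2:**
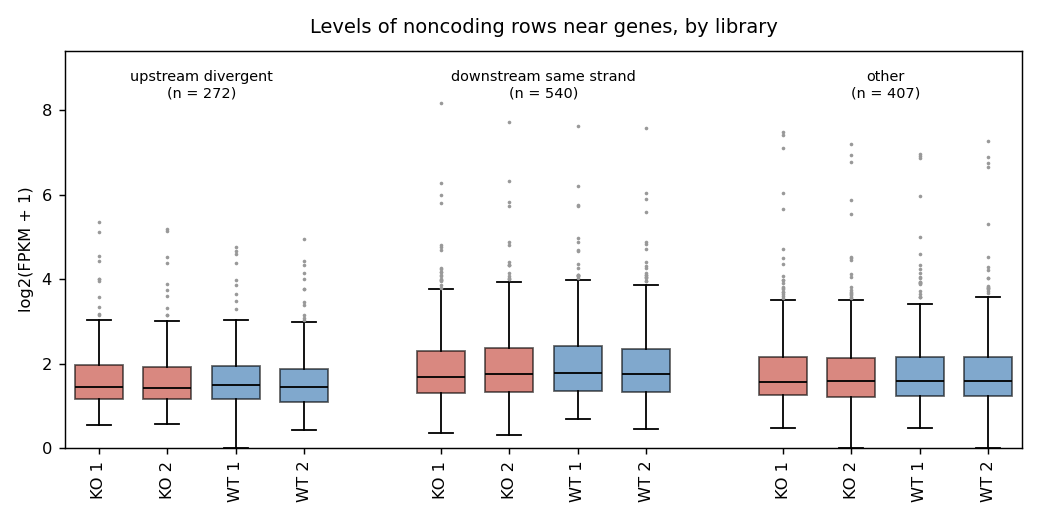
Levels of the noncoding rows as log2(FPKM + 1) in each library, GM1082 KO in red and wild type in blue, by subgroup. Boxes span the quartiles with the median as a line, whiskers reach the farthest row within 1.5 box lengths, and dots are rows beyond; the 4 boxes of a subgroup nearly coincide, and rows downstream on the same strand reach highest.

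The most abundant row of all encloses a guide RNA gene. NONMMUG027654.2, on chromosome 3 from 108554338 to 108554751 (minus strand), lies 1674 bases downstream of Tmem167b and contains Scarna2, a small Cajal body RNA that guides chemical modification of spliceosomal RNA. It had 289 and 211 FPKM in GM1082 KO libraries, against 195 and 190.4 FPKM in wild type libraries, while Tmem167b had 12.3 to 15.2 FPKM. The genotypes did not overlap, and GM1082 KO replicate 1 stood well above the rest. Next below it in level among rows downstream on the gene's strand was NONMMUG020801.2. This row lies 147 bases beyond Fads2, the delta-6 fatty acid desaturase gene, and overlaps its RefSeq span. It had 76.9 and 78.9 FPKM in GM1082 KO, against 53.4 and 64.8 FPKM in wild type. Fads2 showed the same order of genotypes, with 59.8 and 68.6 FPKM in GM1082 KO and 40.0 and 57.3 FPKM in wild type.

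NONMMUG020673.3 is Neat1, the long noncoding RNA that scaffolds nuclear paraspeckles, whose RefSeq span it matches. It lies downstream of Frmd8 and had 62.2 and 55.6 FPKM in GM1082 KO and 73.5 and 58.9 FPKM in wild type, against 7.65 to 9.63 FPKM for Frmd8. The genotypes overlapped. NONMMUG041724.2, beyond Cmip, a gene for a signalling adaptor, had 54.7 and 52.2 FPKM in GM1082 KO and 52.6 and 46.8 FPKM in wild type. NONMMUG018024.2, beyond the zinc finger gene Zfp871, had 27.0 and 28.5 FPKM in GM1082 KO and 30.4 and 28.2 FPKM in wild type. Both share bases with the RefSeq span of their gene, and the levels of both overlapped between genotypes. NONMMUG031560.2 overlaps the RefSeq span of Tnfrsf14, a receptor gene of the TNF receptor superfamily. It had 26.1 and 26.8 FPKM in GM1082 KO, just below 28.7 and 27.4 FPKM in wild type. Tnfrsf14 had 26.9 and 26.1 FPKM in GM1082 KO and 23.0 and 25.9 FPKM in wild type.

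Of the rows classed as other, NONMMUG007141.2 was the most abundant, 4082 bases upstream of the RNA helicase gene Dhx40 on the same strand. It had 178 and 146 FPKM in GM1082 KO and 119 and 153 FPKM in wild type, against 11.3 to 11.9 FPKM for Dhx40. NONMMUG017915.2 spans 19667 bases and overlaps the RefSeq gene Rab44, which encodes a large Rab family protein. It had 171 and 109 FPKM in GM1082 KO and 116 and 107 FPKM in wild type. The Ensembl row of Rab44 followed the same libraries, with 147 and 93.3 FPKM in GM1082 KO and 110.1 and 94.2 FPKM in wild type, so GM1082 KO replicate 1 was high in both. NONMMUG035615.2 coincides with the ribosomal protein pseudogene Rpl34-ps1 and may share reads with its parent gene, so its 65.2 and 57.7 FPKM in GM1082 KO and 61.3 and 100.1 FPKM in wild type are uncertain. NONMMUG017592.2, beyond the aminopeptidase gene Lnpep on the opposite strand, had 19.4 and 21.9 FPKM in GM1082 KO, a little below 23.2 and 22.0 FPKM in wild type.

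Among divergent rows, NONMMUG035144.2, 707 bases upstream of the T cell receptor variable segment Trbv21 on the opposite strand, had the highest mean, followed by NONMMUG009847.2 near Glrx5. Both are described with the comparison of genotypes, and the Fth1 row, below the Ighm row in level, stands above. NONMMUG010099.2, 412 bases upstream of the immunoglobulin mu constant region Ighm, had 22.4 and 19.97 FPKM in GM1082 KO and 20.02 and 29.8 FPKM in wild type. Ighm had 184 and 191 FPKM in GM1082 KO and 146 and 216 FPKM in wild type, and wild type replicate 2 was the highest in both. NONMMUG093396.1, divergent from the acute phase gene Orm2, had 14.6 and 11.1 FPKM in GM1082 KO and 13.6 and 15.0 FPKM in wild type. NONMMUG031164.2, 3656 bases from Rsg1, had 15.0 and 13.8 FPKM in GM1082 KO, above 11.6 and 12.6 FPKM in wild type, while Rsg1 was at 0.117 to 0.571 FPKM.

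**Figure D3:**
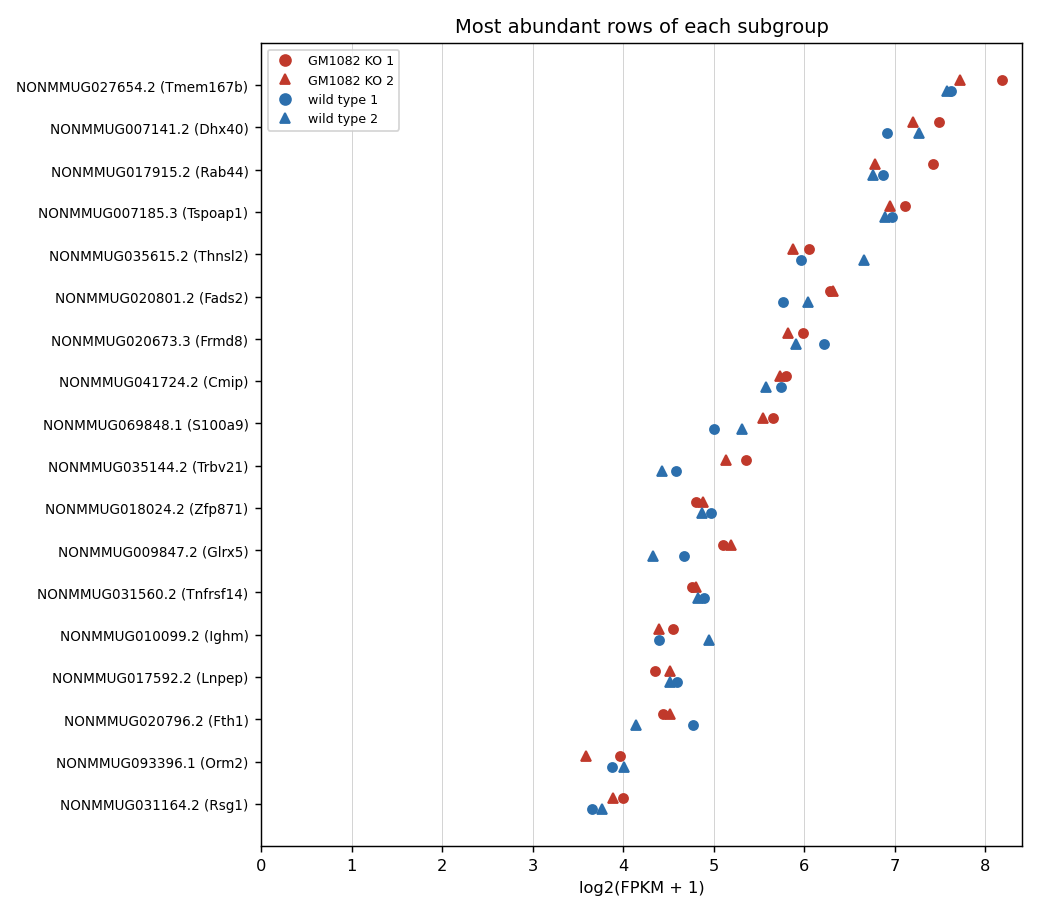
Level as log2(FPKM + 1) of the 6 most abundant rows of each subgroup in the 4 libraries, GM1082 KO in red and wild type in blue, with the neighbour gene in brackets. Rows run from Tmem167b at the top, at 190.4 to 289 FPKM, to Rsg1 at the bottom, at 11.6 to 15.0 FPKM, and in most rows the colours interleave.

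Between the genotypes, none of the 1219 rows passed. In limma on log2(FPKM + 1), with Benjamini-Hochberg adjustment over all 24535 rows averaging 1 FPKM or more, 0 of the 1219 had an adjusted p under 0.05, and the lowest adjusted p among them was 0.459. Over all rows tested, 3 passed (0.0122%), a count that ran from 0 to 24 with 1 library left out. At an unadjusted p under 0.05, 40 rows were higher in GM1082 KO and 49 lower, together 7.30% of 1219, against 5.36% of all rows tested (2.5% higher and 2.85% lower). The libraries of the genotypes did not overlap for 162 rows with GM1082 KO above and 229 with GM1082 KO below, together 32.1%, against 30.9% of all rows (13.2% and 17.7%). Both shares lie near those of all rows.

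The medians of the subgroups lay close to 0. The median log2 change was -0.025 over the 1219 rows, with 548 above 0 and 671 below, against -0.010 over all rows tested and -0.066 over noncoding rows more than 5 kb from genes. It was 0.012 for divergent rows (-0.014 without wild type replicate 2), -0.039 for rows downstream on the same strand (-0.019 without GM1082 KO replicate 1 and -0.062 without GM1082 KO replicate 2) and -0.020 for the others. Among divergent rows, 46 (16.9%) lay wholly higher in GM1082 KO and 39 (14.3%) wholly lower, against 13.2% and 17.7% of all rows tested. Among rows downstream on the same strand these counts were 59 (10.9%) and 115 (21.3%), and among the others 57 (14.0%) and 75 (18.4%). The quartiles of the log2 change, -0.17 and 0.11 over the 1219 rows, were far wider than the shifts of these medians, and differences between subgroups were not tested.

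Replicate error depended on depth. The median difference between libraries of 1 genotype was 0.21 between the GM1082 KO libraries and 0.20 between the wild type libraries on the log2 scale, against 0.16 and 0.10 for the neighbour genes. Fragments could be counted for 813 rows only. Among these, it was 0.33 and 0.31 for rows resting on fewer than 100 fragments in all (228 rows). It was 0.17 and 0.13 for those resting on 300 or more (243 rows). The choice by mean level admitted 60 rows whose mean reached 1 FPKM in GM1082 KO alone and 64 in wild type alone. For a row by itself, the smallest p of an exact two-sided permutation test in this design is 0.333.

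The rows named next had the smallest unadjusted p among those that did not overlap between genotypes, and none passed the adjusted threshold. NONMMUG035144.2, in the T cell receptor beta locus on chromosome 6 from 41198233 to 41201843 (minus strand), had 40.0 and 34.1 FPKM in GM1082 KO libraries, against 23.0 and 20.5 FPKM in wild type libraries. The genotypes did not overlap, and the log2 difference was 0.74 (SE 0.13, limma adjusted p = 0.459). Its neighbour Trbv21 was listed at 0 in both GM1082 KO libraries and at 0.274 and 0 FPKM in wild type. Of 7 markers of T and NK cells, 1 reached 1 FPKM and none was at 0 in every library, and they summed to 2.63 and 3.52 FPKM in GM1082 KO and 3.47 and 4.17 FPKM in wild type, and their part in this row was not tested.

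NONMMUG009847.2, on chromosome 12 from 105031075 to 105031349 (minus strand), coincides with the guide RNA gene Scarna13 and encloses Mir3069, 1339 bases upstream of Glrx5, a gene of iron-sulphur cluster assembly. It had 33.4 and 35.5 FPKM in GM1082 KO, or 163 and 177 fragments, against 24.4 and 19.1 FPKM in wild type, or 128 and 100 fragments. Another noncoding row shares bases with it. The genotypes did not overlap, with a log2 difference of 0.65 (SE 0.14, limma adjusted p = 0.561). Glrx5 overlapped, at 4.74 and 6.09 FPKM in GM1082 KO and 4.64 and 5.46 FPKM in wild type. Scarna2 and Scarna13, both guide RNAs, were thus both in rows with GM1082 KO above wild type, and neither passed. The Scarna13 row was among those chosen for not overlapping, and 13.2% of all rows tested lay wholly higher in GM1082 KO. Rows holding small nuclear RNA genes went both ways. NONMMUG089188.1, with Gm22973, and NONMMUG087877.1, with Gm25939, were wholly higher in GM1082 KO, and NONMMUG007645.2, with Gm24950, was wholly lower. The remaining ones overlapped between genotypes. None of the rows holding small nucleolar RNA genes lay wholly higher in GM1082 KO. NONMMUG088931.1, with Snord49a, had 1.11 and 1.13 FPKM in GM1082 KO, below 1.94 and 1.57 FPKM in wild type. NONMMUG006378.2 encloses Snord49a as well, and its genotypes overlapped, at 3.36 and 3.56 FPKM in GM1082 KO and 4.24 and 3.46 FPKM in wild type. NONMMUG020761.3, with Snord22, was wholly lower in GM1082 KO, and the other rows with small nucleolar RNA genes overlapped between genotypes.

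NONMMUG007241.2, 4293 bases downstream of Trim25, a ubiquitin ligase gene of antiviral signalling, had 10.7 and 8.16 FPKM in GM1082 KO and 5.39 and 3.23 FPKM in wild type. Its log2 difference was 0.99 (SE 0.23, limma adjusted p = 0.608), while Trim25 had 41.9 and 34.5 FPKM in GM1082 KO and 40.3 and 35.7 FPKM in wild type. NONMMUG017894.2, 3983 bases downstream of Mapk14, which encodes the p38 alpha kinase, had 4.25 and 5.99 FPKM in GM1082 KO and 2.63 FPKM in each wild type library. Its log2 difference was 0.74 (SE 0.18, limma adjusted p = 0.642), and Mapk14 overlapped between genotypes, at 61.6 and 55.9 FPKM in GM1082 KO and 60.3 and 63.5 FPKM in wild type. NONMMUG003073.2, 100 bases upstream of the zinc finger gene Hivep2 on the same strand, overlaps the RefSeq span of Hivep2. This row had 2.51 and 2.18 FPKM in GM1082 KO and 0.779 and 0.259 FPKM in wild type. It had the largest log2 difference of those named here, 1.16 (SE 0.21, limma adjusted p = 0.528), but rested on 9 and 8 fragments in GM1082 KO and 3 and 1 in wild type. The other 3 rows higher in GM1082 KO lay near Oip5 (NONMMUG024328.2), Capzb (NONMMUG031116.3) and Dhrs9 (NONMMUG092117.1), with log2 differences of 0.70, 0.63 and 0.64 and limma adjusted p-values of 0.748, 0.748 and 0.777.

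Of the rows lower in GM1082 KO, NONMMUG088028.1 had the smallest p. It lies on chromosome 10 from 4399782 to 4400031 (plus strand), 1884 bases beyond the mitochondrial translation gene Rmnd1 on the opposite strand. It had 2.71 and 2.87 FPKM in GM1082 KO, or 12 and 13 fragments, against 5.66 and 5.24 FPKM in wild type, or 27 and 25 fragments. Replicates were close and the genotypes did not overlap, with a log2 difference of -0.77 (SE 0.13, limma adjusted p = 0.459). Rmnd1 had 4.36 and 4.80 FPKM in GM1082 KO and 4.95 and 4.43 FPKM in wild type. NONMMUG017490.2, divergent from Igf2r, the receptor gene that carries lysosomal enzymes to their organelle, had 2.46 and 2.62 FPKM in GM1082 KO and 4.37 and 5.41 FPKM in wild type. Its log2 difference was -0.73 (SE 0.15, limma adjusted p = 0.537) over 11 and 12 fragments in GM1082 KO and 21 and 26 in wild type. Igf2r overlapped between genotypes, at 14.2 and 14.6 FPKM in GM1082 KO and 14.6 and 13.2 FPKM in wild type. NONMMUG036812.2 lies 61 bases downstream of BC049715 and overlaps its RefSeq span. It had 3.08 and 2.58 FPKM in GM1082 KO and 4.63 and 4.49 FPKM in wild type. Its log2 difference was -0.54 (SE 0.14, limma adjusted p = 0.748). The other 5 lay near Gm17944 (NONMMUG043558.2), Mief1 (NONMMUG090751.1), Riok1 (NONMMUG089637.1), Mbip (NONMMUG009053.2) and Lzic (NONMMUG031392.2), with log2 differences of -0.90, -0.72, -0.78, -0.88 and -0.64 and limma adjusted p-values of 0.537, 0.561, 0.742, 0.742 and 0.748. The row near Lzic overlaps the RefSeq span of that gene.

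**Figure D4:**
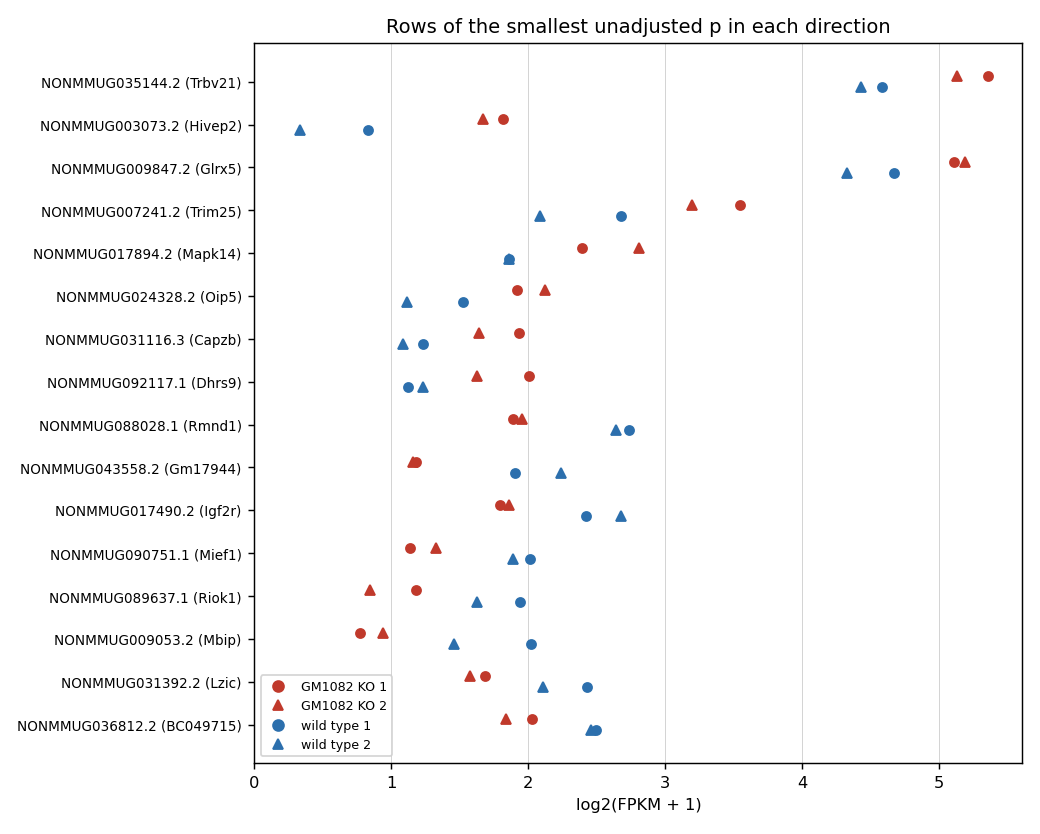
Level as log2(FPKM + 1), in the 4 libraries, of the 8 rows higher and the 8 rows lower in GM1082 KO with the smallest unadjusted limma p among rows that did not overlap between genotypes, GM1082 KO in red and wild type in blue. In the upper 8 both red marks lie right of both blue marks and in the lower 8 left of them, which is how they were chosen, and none passed the adjusted threshold.

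Noncoding rows and their genes were then set against each other. The neighbour genes held 962 tested rows, of which 0 passed in limma. At an unadjusted p under 0.05, 13 were higher in GM1082 KO and 10 lower (2.39%), against 5.36% of all rows tested (2.5% higher and 2.85% lower). Across the 1113 pairs in which both members had at least 1 FPKM, the log2 changes of row and gene were weakly related, with a Pearson r of 0.145, from the same 4 libraries. It was 0.049 for divergent rows, 0.177 for rows downstream on the same strand and 0.160 for the others. The 107 pairs downstream on the same strand whose row overlaps the RefSeq span of the gene had an r of 0.433, against 0.111 for the other 407. When the difference between row and gene was itself fitted in limma over all 2017 pairs of an intergenic noncoding row with its nearest gene, 0 of the 1113 pairs passed, against 1 of 2017 (0.0496%). At an unadjusted p under 0.05, 18 of the 1113 pairs had the row higher relative to its gene in GM1082 KO and 31 lower, together 4.40%, against 4.91% of all pairs (1.83% higher and 3.07% lower).

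**Figure D5:**
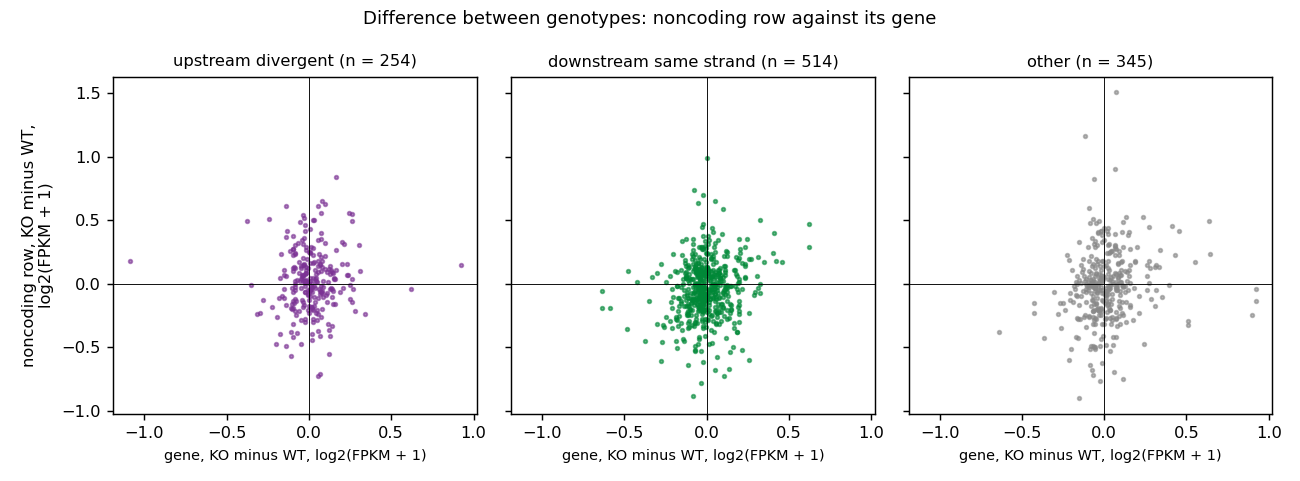
Log2 change between genotypes, GM1082 KO minus wild type on log2(FPKM + 1), of each noncoding row (vertical axis) against that of its gene (horizontal axis), with 1 point per pair and 1 panel per subgroup. The clouds are taller than wide and centred near 0, with an r of 0.049, 0.177 and 0.160 from left to right.

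Rows were also read by 6 lists of neighbour genes, written with earlier results of these data known. They hold genes of myeloid cells and general genes of the cell cycle and of RNA processing and translation. The counts below are to be read against all rows tested, of which 2.5% had an unadjusted p under 0.05 with GM1082 KO higher and 2.85% with GM1082 KO lower, and 13.2% wholly higher and 17.7% wholly lower in GM1082 KO. Of 60 myeloid transcription factors, 9 had 11 noncoding rows, 2 wholly higher and 3 wholly lower in GM1082 KO. NONMMUG095811.1, near Jund of the AP-1 family, had 11.95 and 9.50 FPKM in GM1082 KO, just above 9.45 and 8.01 FPKM in wild type. NONMMUG091673.1, 39 bases upstream of the early growth response gene Egr1 on the opposite strand, had 3.14 and 4.76 FPKM in GM1082 KO and 4.19 and 3.11 FPKM in wild type, and NONMMUG025574.3, downstream of Cebpb, had 4.14 and 3.28 FPKM in GM1082 KO and 4.08 and 3.19 FPKM in wild type. The rows near Egr1 and Cebpb overlapped between genotypes. Of 58 transcription factor genes tested, 0 passed, with 0 higher and 3 lower at an unadjusted p under 0.05.

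Of 50 macrophage receptor and surface genes, 8 had 9 noncoding rows, 1 wholly higher and 2 wholly lower in GM1082 KO. NONMMUG037658.2, divergent from the signalling adaptor gene Tyrobp, had 6.99 and 5.33 FPKM in GM1082 KO and 6.09 and 5.28 FPKM in wild type, against 397 to 535 FPKM for the gene. NONMMUG016445.2, near the costimulatory gene Cd80, shares bases with the RefSeq span of Cd80. It had 5.98 and 8.38 FPKM in GM1082 KO and 9.08 and 5.28 FPKM in wild type. NONMMUG073570.1, divergent from the G-CSF receptor gene Csf3r, had 4.01 and 3.08 FPKM in GM1082 KO and 3.58 and 3.38 FPKM in wild type. All 3 overlapped between genotypes, as did NONMMUG079304.1 near the inhibitory receptor gene Lair1. That row had 4.07 and 5.80 FPKM in GM1082 KO and 3.93 and 4.15 FPKM in wild type. Of the 47 receptor genes tested, 0 passed, with 1 higher and 2 lower at an unadjusted p under 0.05.

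Of 55 cytokine and innate signalling genes, 3 had 4 noncoding rows, 1 wholly higher and 1 wholly lower in GM1082 KO. The phosphatase gene Dusp1 had 1 row on each side. NONMMUG017815.2, downstream, had 7.70 and 8.34 FPKM in GM1082 KO and 7.04 and 7.49 FPKM in wild type, and NONMMUG063087.1, divergent, had 2.59 and 2.41 FPKM in GM1082 KO and 1.45 and 2.53 FPKM in wild type. The downstream row did not overlap between genotypes and the divergent one did. NONMMUG054242.1, near the NF-kappaB inhibitor gene Nfkbia, had 3.25 and 3.38 FPKM in GM1082 KO, just below 3.40 and 4.72 FPKM in wild type. NONMMUG052746.1, near the signalling suppressor gene Socs3, had 1.46 and 1.497 FPKM in GM1082 KO and 1.83 and 0.813 FPKM in wild type. Of the 50 genes tested, 0 passed, with 3 higher and 0 lower at an unadjusted p under 0.05.

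Of 33 granule and lysosome genes, 3 had 1 noncoding row each, 2 of them wholly higher in GM1082 KO and 0 wholly lower. NONMMUG069848.1 ends 68 bases beyond S100a9, a calprotectin subunit of neutrophils and monocytes, on the opposite strand. It had 49.5 and 45.8 FPKM in GM1082 KO, against 31.0 and 38.7 FPKM in wild type. S100a9 had 10167 and 8647 FPKM in GM1082 KO, against 8136 and 7380 FPKM in wild type. Row and gene were thus both higher in GM1082 KO, and S100a9 is itself 1 of the neutrophil markers summed above. The handling of strand is not given, so reads of S100a9 that run past its end cannot be told apart from the row's own. NONMMUG081663.1, divergent from Lamp1, a lysosomal membrane protein gene, had 1.27 and 1.58 FPKM in GM1082 KO, against 0.646 and 0.753 FPKM in wild type. Lamp1 stood the other way, at 179 and 199 FPKM in GM1082 KO and 236 and 213 FPKM in wild type, and neither passed. NONMMUG038638.2 lies downstream of the cathepsin C gene Ctsc and overlaps its RefSeq span. It had 4.42 and 3.62 FPKM in GM1082 KO and 4.66 and 4.35 FPKM in wild type. Of the 32 genes tested, 0 passed in limma. At an unadjusted p under 0.05, 4 were higher and 4 lower, or 25% of those tested, against 5.36% of all rows tested. The list was written with earlier results of these data known, so this share is a description and not a test.

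Of 42 cell cycle genes, Cdkn1b, a cyclin-dependent kinase inhibitor, had 2 downstream rows that share bases and Ccne1, cyclin E1, had 1. NONMMUG036779.2 had 4.41 and 4.86 FPKM in GM1082 KO and 4.44 and 4.15 FPKM in wild type, and NONMMUG036781.3 had 2.29 and 2.48 FPKM in GM1082 KO and 2.47 and 2.82 FPKM in wild type. NONMMUG094856.1, near Ccne1, had 0.756 and 1.97 FPKM in GM1082 KO and 2.57 and 1.05 FPKM in wild type. Replicates of 1 genotype differed there by more than the genotypes did. Of 48 genes of RNA processing and translation, 11 had 13 rows, the most of any list. Of these 13 rows, 0 lay wholly higher and 5 wholly lower in GM1082 KO, 3 of the 13 had an unadjusted p under 0.05, and none passed the adjusted threshold in limma. NONMMUG094695.1, near the splicing factor gene Hnrnpf, had 11.96 and 10.2 FPKM in GM1082 KO and 11.5 and 13.3 FPKM in wild type. NONMMUG091047.1, downstream of the splicing regulator gene Tra2b, had 7.497 and 11.1 FPKM in GM1082 KO and 10.8 and 8.15 FPKM in wild type. NONMMUG009366.2, downstream of the initiation factor gene Eif2s1, had 4.24 and 6.21 FPKM in GM1082 KO and 5.50 and 5.33 FPKM in wild type. These 3 rows, named for their level, overlapped between genotypes, as did NONMMUG088694.1 near Srsf1, at 6.69 and 3.68 FPKM in GM1082 KO and 5.26 and 3.66 FPKM in wild type. Srsf1 itself was listed at 0.623 and 0.309 FPKM in GM1082 KO and 0.193 and 0.321 FPKM in wild type, below this row in every library. Among the 42 cell cycle genes tested, 0 passed and 0 lay under an unadjusted p of 0.05, and among the 46 genes of RNA processing and translation tested, 0 passed, with 1 higher and 0 lower.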

How the data were processed

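The authors deposited 1 table of FPKM values with the span of each row. The submitters' processing notes name Bowtie 0.12.2 and mm9, but of 18848 gene rows matched by Entrez number to RefSeq GRCm38.p6, 99.9% had the same chromosome and 87.4% a start within 1 kb, so coordinates are read as GRCm38. The sources used here do not give how reads were assigned to rows or how strand was handled.

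The noncoding rows and the gene lists were chosen with earlier results of these data known. The gap was counted between spans, and ties went to the gene with the higher mean. In limma 3.58.1 (R 4.3.3; lmFit, then eBayes with a trend), log2(FPKM + 1) of all rows averaging 1 FPKM or more was fitted, and the script was tested on simulated data. Changes are GM1082 KO minus wild type on that scale and understate changes of low rows. P-values were adjusted over all rows tested. Fragments were recovered as whole steps of FPKM times span: 82.7% to 83.4% of low values per library lay within 0.05 of a whole number, and since exon lengths are not given no count model was used.

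Named were the 8 rows per direction with the smallest p that did not overlap between genotypes and had a group mean of at least 2 FPKM, the 6 highest of each subgroup, and up to 4 per list of neighbour genes, besides all rows with miRNA genes and divergent rows whose promoters are shown. Tried as alternatives were each library left out, a replicate block, eBayes without a trend, quantile normalization, median-of-ratios scaling, no filter, filters of 0.1 and 5 FPKM, and a pseudocount of 0.1.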

Additional observations from a re-analysis of the deposited data

How the results depend on the processing

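The count of 0 noncoding rows near genes past the adjusted limma threshold held in all 12 alternatives, with a lowest adjusted p of 0.0934, without wild type replicate 1. The 16 rows named by p kept their direction and missed the threshold in all 179 alternative values (adjusted p from 0.135 up). The 3 rows of the whole table became 0 with a filter of 0.1 FPKM and 0 with no filter, and 0 to 24 with 1 library left out (0 without either GM1082 KO library, 12 without the first wild type library, 24 without the other). The 1 called pair of row and gene became 0 with filters of 0.1 or 5 FPKM and with none, and 0 to 2 with 1 library left out. With a filter of 5 FPKM, 200 noncoding rows near genes were tested, with 9 higher and 6 lower in GM1082 KO at p under 0.05 before adjustment. With 1 library left out, the median log2 change ranged from -0.045 (without wild type replicate 2) to -0.018 over the 1219 rows, from -0.062 to -0.019 for rows downstream on the same strand, from -0.033 to -0.023 for the rows classed as other, and from -0.014 (without wild type replicate 2) to 0.021 for divergent rows, so the sign for divergent rows rests on that library. For the rows classed as other it was -0.031 with a pseudocount of 0.1 and -0.0062 with median-of-ratios scaling. The replicate number as a block gave 6 rows in the whole table. The deviations of libraries with the same number from their group means had a correlation of 0.051 over 24535 rows, so the numbers are not read as a pairing. The number of rows moved with the choice: a gap of 2 kb gave 769 rows, a mean of 0.5 FPKM 1999 and a mean of 5 FPKM 200, with divergent shares of 29.8%, 27.0% and 13.5%. The causes of these shifts were not tested. Among the 813 rows whose fragments could be recovered, depth limits the 228 that rest on fewer than 100 fragments over the 4 libraries.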

Other observations

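Several genes carried a cluster of noncoding rows, named here after their values were seen. Of the 1057 neighbours, 23 had 3 or more rows, 71 rows in all, and Actr5 and Mtdh had the most, 4 each. The rows of Actr5, a chromatin remodelling subunit gene, all lay downstream on its strand in a row, from 717 to 4454 bases away. The nearest, NONMMUG092225.1, had 3.62 and 2.44 FPKM in GM1082 KO and 1.28 and 2.08 FPKM in wild type, and the farthest, NONMMUG092228.1, had 2.74 and 2.68 FPKM in GM1082 KO and 3.55 and 2.88 FPKM in wild type. Between them, NONMMUG092226.1 had 1.58 and 0.808 FPKM in GM1082 KO and 1.47 FPKM in each wild type library, and NONMMUG092227.1 had 2.62 and 0.883 FPKM in GM1082 KO and 1.73 and 1.72 FPKM in wild type. Actr5 itself had 4.02 to 4.89 FPKM. Near the survival gene Mcl1, 1 of 3 rows stood apart: NONMMUG092764.1, 4298 bases downstream on the same strand, had 24.6 and 19.2 FPKM in GM1082 KO and 24.5 and 20.1 FPKM in wild type, while both upstream rows were under 3 FPKM. The 3 rows beyond the actin regulator gene Wdr1 lay on the opposite strand, and the 2 nearest were lower in GM1082 KO without overlap. NONMMUG093665.1 had 7.37 and 7.998 FPKM in GM1082 KO and 8.96 and 9.97 FPKM in wild type, and NONMMUG093664.1 had 5.19 and 5.46 FPKM in GM1082 KO and 6.82 and 6.52 FPKM in wild type. Wdr1 overlapped between genotypes, at 63.4 and 70.8 FPKM in GM1082 KO and 61.0 and 66.4 FPKM in wild type.

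Of the 33 rows that coincide with a RefSeq gene, AI504432 (NONMMUG027595.2, downstream of the potassium channel gene Kcna3) followed Neat1 in level among the long noncoding RNAs. It had 15.8 and 20.4 FPKM in GM1082 KO, below 24.9 and 25.1 FPKM in wild type. NONMMUG020761.3 coincides with Snhg1, a host of small nucleolar RNAs, and had 0.854 and 1.05 FPKM in GM1082 KO, below 1.26 and 1.16 FPKM in wild type. NONMMUG003240.2 coincides with Gm36228, near the arginase gene Arg1, and split within each genotype, with 2.00 and 0 FPKM in GM1082 KO and 1.85 and 0.168 FPKM in wild type.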
